A study of Mus musculus with 4 samples.

Results

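The genes described here are those of the RUNX transcription factors, Runx1, Runx2 and Runx3, their partner Cbfb, and the osteoblast genes Sp7, Dlx5, Dlx6 and Alpl, 8 of the 21581 protein-coding genes of the annotation. They were chosen by name. All H3K27ac peaks that overlapped the body of each gene or lay within 150 kb of its first transcription start site were taken from 4 peak lists. H3K27ac, an acetylation of histone H3 carried by active promoters and enhancers, was measured by ChIP-seq in EGFP+ and EGFP− cells sorted from the limbs and from the trunk of E14.5 fetuses. All fetuses carried a homozygous Col2a1 EGFP sensor, a cassette with a minimal β-globin promoter placed upstream of Col2a1, and came from 1 engineered clone of G4 embryonic stem cells by tetraploid aggregation, so no population lacks the allele. Col2a1 encodes the main collagen of cartilage, and EGFP+ cells are the chondrocyte fraction. EGFP− cells are all remaining cells of the dissected tissue and mix many cell types. Each population was represented by 1 library of pooled tissue, so no test between populations was made, and fewer cells of a type cannot be told apart from less acetylation per cell. Limb libraries were run on 1 sequencing lane and trunk libraries on another, and the effects of lane and tissue cannot be told apart.

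The RUNX proteins bind DNA through a shared Runt domain as heterodimers with Cbfb, which does not itself touch DNA and raises their affinity. Runx2 is required for osteoblast differentiation and, together with Runx3, drives the maturation of chondrocytes towards hypertrophy, while Runx1 is best known from blood formation and is also active in skeletal progenitors. Sp7 (osterix) is a zinc finger factor that acts after Runx2 in the osteoblast lineage. Dlx5 and Dlx6 are neighbouring homeobox genes of the early skeletal condensations, and Alpl encodes the alkaline phosphatase needed for mineral deposition. Each Runx gene has a distal promoter, P1, and a proximal promoter, P2, whose transcripts differ at the start of the protein.

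The populations differed in which promoters had a peak, and the reference sequences upstream of the starts that had a peak in EGFP+ cells and none in at least 1 EGFP− list are given for Runx2 P1, Runx3 P1 and Sp7. Each stretch holds the 250 bases before the first start site of that promoter, written 5′ to 3′ on the gene's strand, with matches to TGTGGT or TGCGGT (RUNX), TAATTA or TAATTG (homeodomain), ACAATG or ACAAAG (SOX) and TGANTCA (AP-1) in capitals, on either strand.
Runx2 P1 promoter (GRCm39, chr17:45125685-45125934, minus strand): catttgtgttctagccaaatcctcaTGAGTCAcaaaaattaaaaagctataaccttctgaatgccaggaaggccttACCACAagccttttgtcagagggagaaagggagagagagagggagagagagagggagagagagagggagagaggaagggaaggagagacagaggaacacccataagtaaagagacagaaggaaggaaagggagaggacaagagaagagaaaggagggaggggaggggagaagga
Runx3 P1 promoter (GRCm39, chr4:134847702-134847951, plus strand): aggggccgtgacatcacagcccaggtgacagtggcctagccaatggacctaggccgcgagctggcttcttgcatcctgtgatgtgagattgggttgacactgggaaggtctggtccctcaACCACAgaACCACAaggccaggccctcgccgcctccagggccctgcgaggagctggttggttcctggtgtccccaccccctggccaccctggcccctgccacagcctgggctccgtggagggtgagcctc
Sp7 upstream promoter (GRCm39, chr15:102279371-102279620, minus strand): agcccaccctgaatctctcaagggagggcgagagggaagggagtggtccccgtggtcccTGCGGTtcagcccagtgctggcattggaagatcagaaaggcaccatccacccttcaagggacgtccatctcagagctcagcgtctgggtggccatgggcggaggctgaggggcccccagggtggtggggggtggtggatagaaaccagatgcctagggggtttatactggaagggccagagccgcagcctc
Runx3 P1 held 2 RUNX matches, Runx2 P1 held 1 RUNX match and 1 AP-1 match, and the upstream start of Sp7 held 1 RUNX match. The Runx3 P1 peak (chr4:134847298-134847533) lies upstream of the printed stretch and does not overlap it. For background, the 250 bases before the main annotated start of each of the 21581 genes were searched. Of these, 17.9% held a RUNX match, 11.8% a homeodomain match, 23.7% a SOX match and 6.14% an AP-1 match. The printed starts are not the main starts of their genes. Of 6 member promoters searched, only the printed ones held a RUNX match. The others were those of Dlx5, Dlx6 and the internal start of Alpl. Upstream of the Dlx5 start there was 1 homeodomain and 1 SOX match. The internal Alpl start had 1 SOX match, and the Dlx6 start had no match. These matches are descriptions of letters and not binding sites.

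The limb lists held 40899 (EGFP+) and 34360 (EGFP−) peak intervals and the trunk lists 36231 (EGFP+) and 30716 (EGFP−), after summits that shared a start and an end had been joined. The authors sampled the same number of reads from each library, and the reads behind each summit could be recovered, with medians of 26 to 29 reads and a lowest value of 7 or 8 reads. A missing peak thus means that a site did not pass the caller's threshold in 1 library. Promoter peaks of chondrocyte markers were present for 9 of 9 genes in both EGFP+ lists, against 3 in limb and 2 in trunk EGFP− cells, and their summed -log10 p was 194 and 127 in limb and trunk EGFP+ cells and 28.2 and 29.3 in EGFP− cells. Markers of muscle, endothelium, blood, skin epithelium and nerve had at most 2 of 6 promoters with a peak in any list. Those of blood and skin had none. The endothelial gene Tek had a promoter peak of 13 reads in each EGFP− list and in no EGFP+ list. Myog, of muscle, and Sox10, of nerve, had one in limb EGFP+ cells alone. Tubb3, of nerve, had one in trunk EGFP− cells alone, with 12 reads at the top 97.6% of that list. Elavl4, also of nerve, had a promoter peak in all 4 lists. Its summits had 16, 8, 22 and 21 reads in limb EGFP+, limb EGFP−, trunk EGFP+ and trunk EGFP− cells. The windows of the 6 skin genes held 24 distal intervals in limb EGFP− against 6 in limb EGFP+ cells, and 14 against 12 in the trunk. Windows of muscle genes held 14, 15, 7 and 12 in limb EGFP+, limb EGFP−, trunk EGFP+ and trunk EGFP− cells. In the same order, those of endothelium held 16, 19, 12 and 9, those of blood 12, 9, 14 and 10, and those of nerve 13, 4, 10 and 5. The part of these cell types in the results was not tested.

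A promoter peak was an interval that reached to within 2 kb before or 500 bp after a start site, with start sites up to 1 kb apart treated as 1 promoter, which gave 18 promoters for the 8 genes. Of the 8 genes, 7 had a promoter peak in limb EGFP+ cells, where 54.4% of all protein-coding genes had one, and 4 had one in limb EGFP− cells, where the share of all genes was 51.6%. In the trunk, 5 genes had a promoter peak in EGFP+ cells, against 52.6% of all genes, and 3 in EGFP− cells, against 52.7%. Runx1 and Cbfb had a peak in all 4 populations, Runx2 in the EGFP+ cells of both tissues, Sp7 and Dlx5 in all but trunk EGFP− cells, Runx3 and Dlx6 in limb EGFP+ cells alone, and Alpl in trunk EGFP− cells alone.

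**Figure D1:**
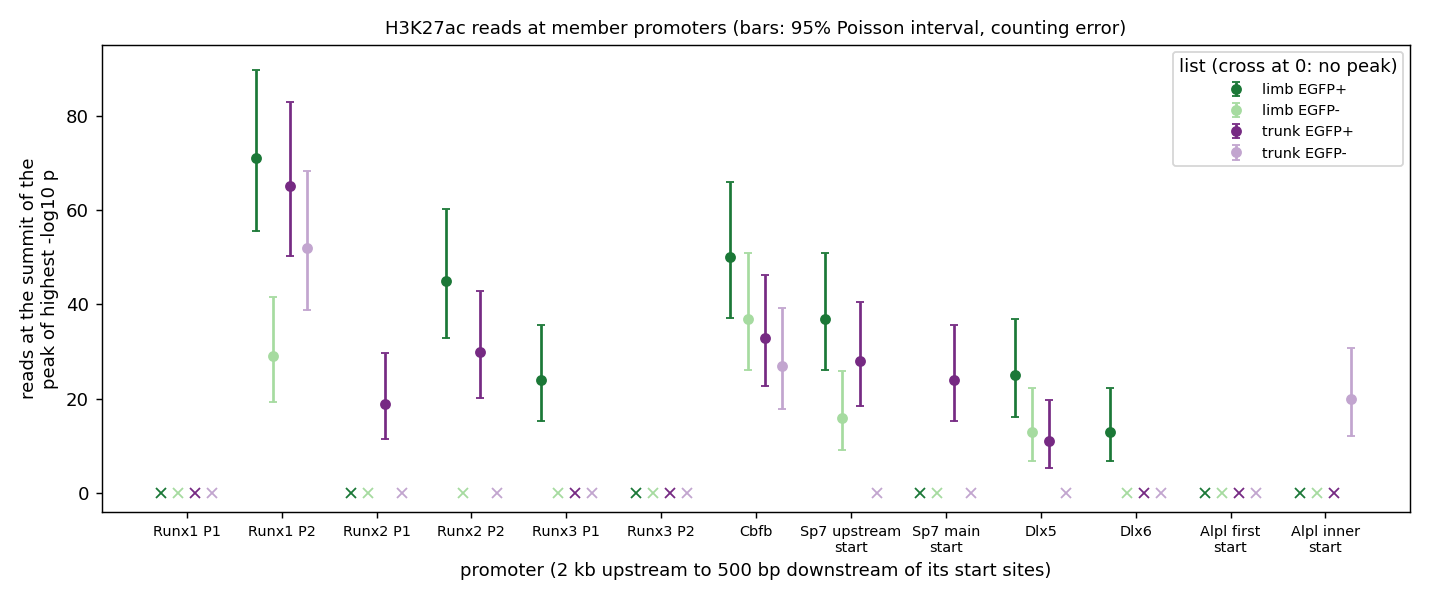
Reads at the summit of the strongest peak (y axis, number of reads) of 13 of the 18 promoters (x axis) in the 4 lists, with exact 95% Poisson intervals that cover counting error only and a cross at 0 where no peak was called. Runx1 P2 and Cbfb have points in all 4 lists, while both Runx2 promoters have points in EGFP+ lists alone.

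Runx2, the osteoblast master regulator, was marked at both of its promoters in EGFP+ cells and at neither in EGFP− cells. At P2, limb EGFP+ cells had 3 intervals, the strongest of which (chr17:45045544-45046101) reached a -log10 p of 11.6 with 45 reads at the summit (95% Poisson interval 32.8 to 60.2). Trunk EGFP+ cells had 2 intervals at P2, the stronger (chr17:45046675-45046923) with a -log10 p of 6.43 and 30 reads (20.2 to 42.8). At P1, a single interval in trunk EGFP+ cells (chr17:45125757-45126087) had a -log10 p of 5.59 and 19 reads (11.4 to 29.7), with its summit 150 bp upstream of the first start. The nearest peak to the P2 starts lay 24.4 kb away in limb EGFP− cells and 40.0 kb away in trunk EGFP− cells. By -log10 p, the P2 peaks were in the top 45.4% of the limb EGFP+ list and the top 71.8% of the trunk EGFP+ list, so they were of middle to low strength among all peaks. Their fold over local background was 3.20 in limb and 2.64 in trunk EGFP+ cells, and that of the P1 peak was 2.98. A fold of at least 4 left no promoter peak of Runx2. The -log10 q was 9.03 at P2 in the limb, and 3.99 at P2 and 3.215 at P1 in the trunk. A −log10 q of at least 5 thus left a peak in limb EGFP+ cells alone.

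The promoter pattern of Runx2, a peak in the EGFP+ cells of both tissues and in no EGFP− list, was shared by 314 of the 21581 genes (1.45%). Among the gene lists used here, the strongest genes with the same 4 entries were the cartilage genes Col9a1, Fgfr3, Col11a2 and Acan. Col9a1, a fibril-associated collagen gene, had promoter summits of 90 reads in limb and 60 reads in trunk EGFP+ cells. Fgfr3, a receptor that restrains chondrocyte proliferation, had 80 and 58 reads, Col11a2 had 94 and 68, and Acan, the gene of the large cartilage proteoglycan, had 70 and 53. This likeness rests on presence or absence in 4 lists, and for Runx2 it depends on the peak threshold.

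Runx1 and Runx3 each had a promoter with no peak in any list, but not the same one. Runx1 had no peak at P1, the nearest interval being 19.1 to 19.8 kb away in the 4 lists. Its P2 had wide peaks in every population. Limb EGFP+ cells had 71 reads at the summit (55.5 to 89.6) in an interval of 1193 bp, and limb EGFP− cells had 29 reads (19.4 to 41.6) in an interval of 590 bp. Trunk EGFP+ cells had 65 reads (50.2 to 82.8) over 1192 bp and trunk EGFP− cells 52 reads (38.8 to 68.2) over 1157 bp. The limb EGFP− signal was split into 3 intervals, of which this is the strongest. In the limb the counting intervals of the 2 fractions did not overlap, and in the trunk they did. Relative to local background, the summits reached a fold of 6.12 in limb EGFP+ and 5.455 in limb EGFP− cells. In the trunk the fold was 4.71 in EGFP+ and 7.12 in EGFP− cells. The limb peak was in the top 14.8% of the EGFP+ list and the top 34.9% of the EGFP− list, and the trunk peak in the top 17.6% and 12.8%.

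Runx3 had a P1 peak in limb EGFP+ cells alone (chr4:134847298-134847533), with a -log10 p of 7.82 and 24 reads (15.4 to 35.7), and its nearest peaks in the other 3 lists lay 24.5 to 26.0 kb away. No peak fell in the window of Runx3 P2. A region just downstream of that window (chr4:134880310-134881301), which overlaps a Runx3 exon, began 503 bp after the P2 start in limb EGFP+ cells. It had a -log10 p of 8.35 in the EGFP+ cells of the limb, and of 10.1 and 4.19 in the EGFP+ and EGFP− cells of the trunk. A promoter window that reached 1 kb downstream would include the EGFP+ intervals, and not the trunk EGFP− interval, which began 1083 bp after the start.

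Cbfb, which encodes the common partner of the RUNX proteins, was marked in every population. Its promoter summit had 50 reads (37.1 to 65.9) in limb EGFP+ cells, 37 (26.1 to 51.0) in limb EGFP− cells, 33 (22.7 to 46.3) in EGFP+ and 27 (17.8 to 39.3) in EGFP− cells of the trunk. The value was higher in EGFP+ cells in both tissues, but the counting intervals overlapped in each. Its ranks ran from the top 25.1% in limb EGFP+ cells to the top 59.3% in trunk EGFP− cells.

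Among the osteoblast genes, Sp7 had its strongest promoter peak at the upstream start site, not at the main start of the annotation. There, limb EGFP+ cells had 37 reads (26.1 to 51.0), limb EGFP− cells 16 (9.14 to 26.0) and trunk EGFP+ cells 28 (18.6 to 40.5), with -log10 p of 16.6, 8.81 and 9.15. No trunk EGFP− peak was called at that start. The counting intervals of the limb fractions lay next to each other and did not overlap. Local background also differed, with 6.5 reads in limb EGFP+ and 2.5 in limb EGFP− cells. The ratio of summit to background (fold) was therefore close, 5.07 and 4.86. The 2 summits lay apart, 267 bp upstream and 151 bp downstream of the start. The main start of Sp7 had a peak only in trunk EGFP+ cells, with a -log10 p of 4.61, at the top 91.3% of that list.

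At Dlx5, limb EGFP+ cells had 25 reads (16.2 to 36.9), limb EGFP− cells 13 (6.92 to 22.2) and trunk EGFP+ cells 11 (5.49 to 19.7), and these intervals overlapped. Its trunk EGFP+ peak was at the top 99.3% of that list, next to the caller's threshold. Dlx6 had 3 weak intervals in limb EGFP+ cells alone, with -log10 p from 4.97 to 5.70 and 12 or 13 reads each. Alpl had no peak at its first start site in any list, the nearest interval being 12.5 kb away in trunk EGFP− cells and 64.9 kb away in limb EGFP+ cells. Of its 6 promoters, a peak reached only an internal one, in trunk EGFP− cells (chr4:137510970-137511213), with 20 reads (12.2 to 30.9) and a -log10 p of 10.6. EGFP− intervals also lay 501 bp (trunk) and 593 bp (limb) downstream of another internal start of Alpl, just outside its window. A promoter window that reached 1 kb downstream would include both, so the absence of a limb EGFP− promoter peak depends on this limit. Col2a1 had the same promoter pattern as Sp7 and Dlx5, with 110 and 84 reads in limb and trunk EGFP+ cells and 14 reads in limb EGFP− cells, and the neuronal tubulin gene Tubb3 had that of Alpl.

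Outside all promoter windows of protein-coding genes, the gene windows held 71 distal peak intervals of the EGFP+ and 37 of the EGFP− list in the limb, and 62 and 30 in the trunk. In the limb, 6 of the 8 genes had more distal intervals in EGFP+ than in EGFP− cells, against 40.8% of all genes, and the median difference over the members was 2.5 intervals against 0 over all genes. In the trunk, 7 of 8 had more in EGFP+ cells, against 41.4% of all genes, and the median difference was 4 intervals against 0. Of all 21581 genes in the limb, 8807 had more in EGFP+ cells, 5766 fewer and 7008 equal counts. In the trunk these numbers were 8932, 5046 and 7603. Many ties arose over all genes, whose median count was 2 in each list. Member medians were 7.5 and 5 in limb EGFP+ and EGFP− cells, and 7.5 and 4.5 in the trunk. The windows of Runx1 and Runx2 were also long, at 375 and 469 kb. Dlx5 and Dlx6 share their distal intervals, since they are neighbours, and are not independent in these counts.

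**Figure D2:**
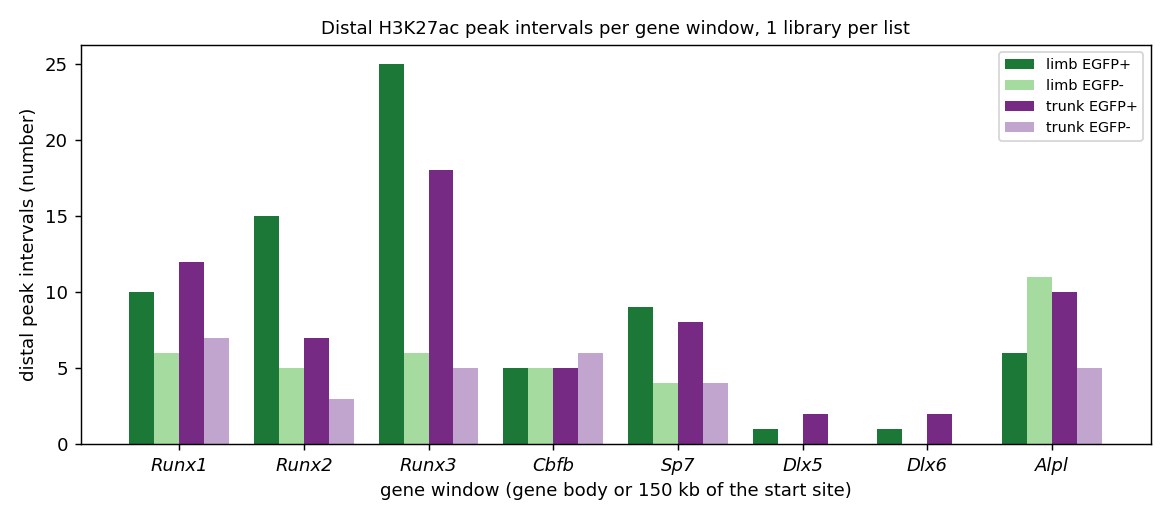
Number of distal H3K27ac peak intervals (y axis) in the window of each gene (x axis), with 1 bar per peak list. Runx3 has 25 and 18 intervals in limb and trunk EGFP+ cells against 6 and 5 in EGFP− cells, while Alpl has its highest bar, 11, in limb EGFP− cells.

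Runx3 had the most distal intervals, with 25 in limb EGFP+, 6 in limb EGFP−, 18 in trunk EGFP+ and 5 in trunk EGFP− cells. Its counts were at the 99.8th percentile of all genes in limb EGFP+ cells and the 99.4th in trunk EGFP+ cells, but at the 86.8th and 85.5th in the EGFP− lists. Runx2 had 15, 5, 7 and 3 in the same order, and Runx1 had 10, 6, 12 and 7. Sp7 had 9, 4, 8 and 4. Cbfb had 5, 5, 5 and 6, with no excess in EGFP+ cells. Dlx5 and Dlx6 had 1, 0, 2 and 0. At Alpl the limb had 6 in EGFP+ and 11 in EGFP− cells, while the trunk had 10 and 5. The Sp7 and Cbfb windows each also hold parts of 15 other protein-coding genes, whose promoter peaks (22 to 24 intervals per list for Sp7, 6 to 9 for Cbfb) were left out of these counts.

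Overlapping distal intervals of the 4 lists were joined into 118 regions. Of these, 72 (61.0%, exact 95% interval 51.6 to 69.9%) had a peak in EGFP+ lists only, where 46.2% of all 43885 distal regions did, and 23 (19.5%) in EGFP− lists only, where 31% of all distal regions did. The other 23 had a peak in both fractions, and 12 of these were present in all 4 lists. Of the 72 EGFP+-only regions, 17 were found in both tissues, 33 in the limb alone and 22 in the trunk alone. The split was similar over all distal regions. Of 20285 EGFP+-only regions, 4726 were found in both tissues, 9319 in the limb alone and 6240 in the trunk alone. Neighbouring regions of 1 gene are not independent, and the interval covers counting error only. Distal intervals of the members were close in width and rank to all distal intervals. Their median width was 369 bp in limb EGFP+ cells, against 331 bp for all, and 296 bp in limb EGFP− cells, against 294 bp. None was in the strongest 10% of its list.

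**Figure D3:**
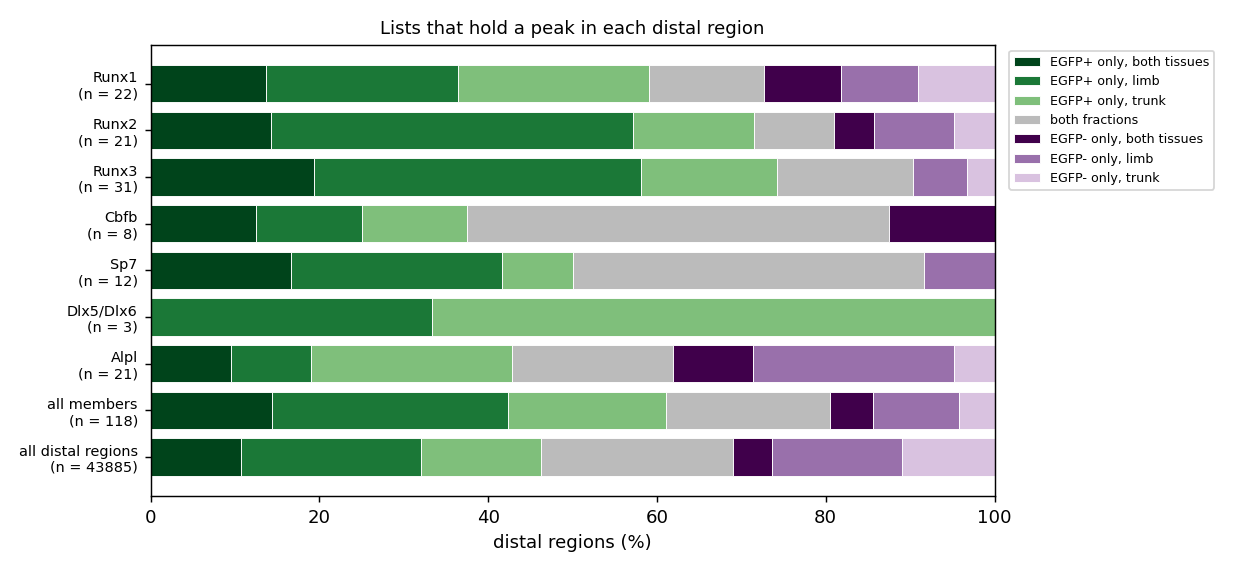
Share of distal regions (x axis, percent) by the lists that hold a peak, for each gene window, for the 118 regions of all 8 genes and for all 43885 distal regions. The green part, EGFP+ lists only, takes 74.2% of the Runx3 regions and 42.9% of the Alpl regions.

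The share of EGFP+-only regions differed between the genes. It was 23 of 31 for Runx3, 15 of 21 for Runx2, 13 of 22 for Runx1, 6 of 12 for Sp7, 9 of 21 for Alpl and 3 of 8 for Cbfb, and all 3 regions of Dlx5 and Dlx6 were EGFP+-only. EGFP−-only regions numbered 8 for Alpl, 6 for Runx1, 4 for Runx2, 3 for Runx3 and 1 each for Cbfb and Sp7. With so few regions per gene, the exact 95% interval of Runx2 (47.8 to 88.7%) overlapped that of Alpl (21.8 to 66.0%).

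The reference sequences at the summits of leading EGFP+-only distal regions are given for Runx2, Runx3 and the Dlx5/Dlx6 window, as the 200 bases around the strongest summit on the plus strand, with the same motifs in capitals.
Runx2 distal region (GRCm39, chr17:44876169-44876368, plus strand): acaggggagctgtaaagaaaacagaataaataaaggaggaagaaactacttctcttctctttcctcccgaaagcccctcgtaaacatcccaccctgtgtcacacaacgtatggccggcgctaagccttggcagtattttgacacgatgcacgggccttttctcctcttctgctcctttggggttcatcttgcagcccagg
Runx3 distal region (GRCm39, chr4:134894423-134894622, plus strand): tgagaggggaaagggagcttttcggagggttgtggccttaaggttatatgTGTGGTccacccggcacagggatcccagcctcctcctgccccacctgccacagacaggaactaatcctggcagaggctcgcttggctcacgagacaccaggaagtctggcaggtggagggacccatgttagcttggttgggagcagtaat
Dlx5/Dlx6 distal region (GRCm39, chr6:6802225-6802424, plus strand): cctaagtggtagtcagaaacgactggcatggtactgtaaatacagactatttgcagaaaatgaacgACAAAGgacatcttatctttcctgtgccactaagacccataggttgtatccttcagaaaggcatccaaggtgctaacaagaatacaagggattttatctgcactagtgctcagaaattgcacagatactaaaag
The Runx3 stretch held 1 RUNX match, the Dlx5/Dlx6 stretch 1 SOX match, and the Runx2 stretch no match. Over the strongest summits of all 72 EGFP+-only regions, 8 (11.1%) held a RUNX match and 17 (23.6%) a SOX match, where 16.5% and 23.9% of all distal summits of the limb EGFP+ list did.

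In the Runx2 window all 21 regions were intronic, 16 of them in the body of Runx2 and 5 upstream of it in introns of Supt3, a gene that overlaps the first part of Runx2. These 5 upstream regions, 44.1 to 90.9 kb from P1, were all EGFP+-only, and 1 of them (chr17:45169311-45170194) was present in both tissues, with -log10 p of 7.29 and 7.07. The leading EGFP+-only region, 249 kb into the gene (chr17:44875869-44876746), had 23 reads (14.6 to 34.5) in limb and 22 (13.8 to 33.3) in trunk EGFP+ cells. An intronic region at 197 kb (chr17:44928778-44929269) was present in all 4 lists, with 27, 22, 21 and 14 reads in limb EGFP+, limb EGFP−, trunk EGFP+ and trunk EGFP− cells. The strongest EGFP−-only region (chr17:44908909-44909119) was seen in the trunk alone, with 24 reads (15.4 to 35.7). A further one, 183 kb into the gene (chr17:44942742-44943146), was present in the EGFP− cells of both tissues, with -log10 p of 5.61 and 6.21.

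**Figure D4:**
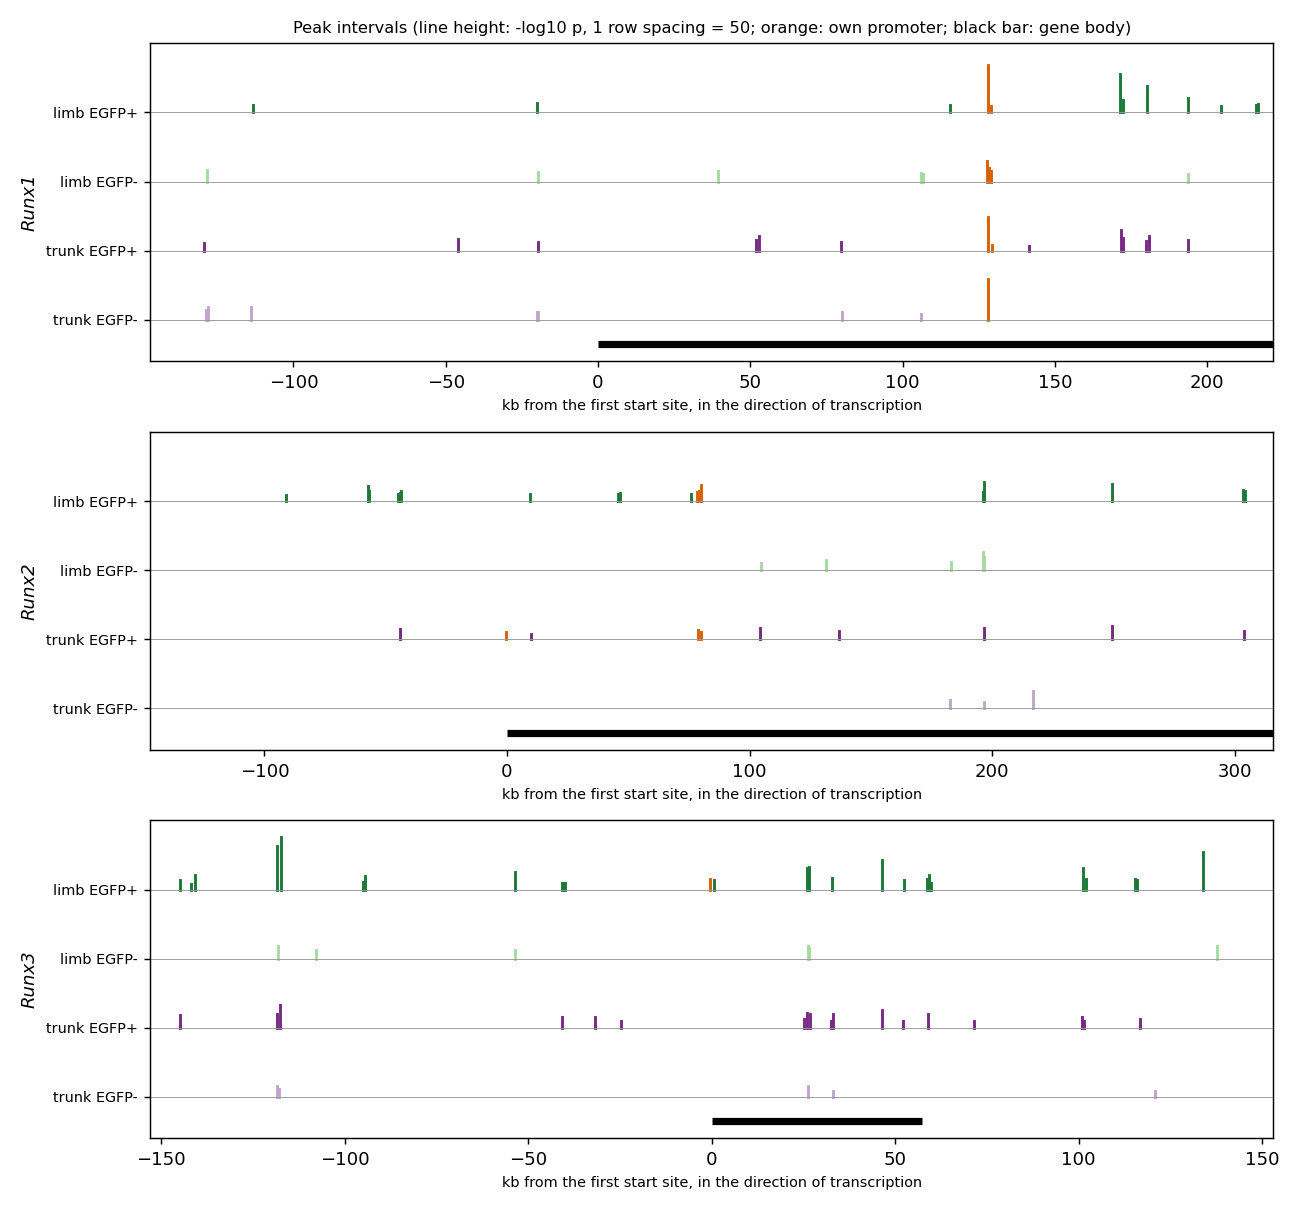
Peak intervals of the 4 lists (rows) in the windows of Runx1, Runx2 and Runx3 by distance from the first start site (x axis, kb, positive in the direction of transcription), with line height in proportion to -log10 p, promoter intervals in orange and the gene body as a black bar. At Runx2 the orange lines appear in the EGFP+ rows alone, and at Runx3 the EGFP+ rows hold many more lines than the EGFP− rows.

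In the Runx3 window, 16 of 31 regions were intergenic, 7 lay in the gene body and 8 lay in the neighbouring gene Clic4. The leading region in both fractions, 118 kb upstream (chr4:134729220-134730799), held more than 1 interval in 3 of the 4 lists. At its end nearer the gene, the EGFP+ summits had 70 reads (54.6 to 88.4) in the limb and 37 (26.1 to 51.0) in the trunk, and the EGFP− intervals that overlapped them had 22 (13.8 to 33.3) and 14 (7.65 to 23.5). In neither tissue did the counting intervals of the fractions overlap there. At its far end the trunk EGFP+ interval had 27 reads (17.8 to 39.3) and the trunk EGFP− interval 17 (9.90 to 27.2), and these overlapped, while limb EGFP+ cells had 63 reads (48.4 to 80.6). The leading EGFP+-only region of both tissues, in an intron 46.4 kb into the gene (chr4:134893664-134895098), had 47 reads (34.5 to 62.5) in limb and 33 (22.7 to 46.3) in trunk EGFP+ cells. The strongest EGFP+-only region of the window by -log10 p, 26.9, was in an intron of Clic4 (chr4:134981625-134982225) and was found in the limb alone. The strongest of the 3 EGFP−-only regions lay close to it in the same gene (chr4:134985362-134986084), with 24 reads in limb EGFP− cells.

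Runx1 carried its strongest distal peaks downstream of P2, in introns near the end of the gene. The region 171 kb from P1 (chr16:92450942-92452083) had 59 reads (44.9 to 76.1) in limb and 40 (28.6 to 54.5) in trunk EGFP+ cells and no peak in EGFP− cells, and it was in the top 20.0% of the limb EGFP+ list. A wide region 181 kb from P1 (chr16:92441443-92443521) was likewise EGFP+-only in both tissues, with -log10 p of 19.3 and 10.8. A weaker intronic region 194 kb from P1 (chr16:92429057-92429330) was the strongest of both fractions, with 24, 12 and 22 reads in limb EGFP+, limb EGFP− and trunk EGFP+ cells and no peak in trunk EGFP− cells. The pattern opposite to that of the EGFP+-only regions was seen 128 kb upstream of P1 (chr16:92751066-92751535), with 21 reads (13.0 to 32.1) in limb and 25 (16.2 to 36.9) in trunk EGFP− cells.

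The regions of Cbfb differed less between the fractions. A region 1.19 kb into the gene (chr8:105898158-105898813) had 50, 38, 38 and 28 reads in limb EGFP+, limb EGFP−, trunk EGFP+ and trunk EGFP− cells, with counting intervals that overlapped between the fractions of each tissue. An intronic region at 36.0 kb (chr8:105933012-105933562) was EGFP+-only in both tissues, with 23 and 22 reads, while a region 5.95 kb upstream (chr8:105890620-105892063) was EGFP−-only in both tissues, with 34 reads in the limb and 24 in the trunk.

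At Sp7, the strongest distal regions were present in both fractions. The region 6.48 kb upstream (chr15:102285433-102286275) had 50 reads (37.1 to 65.9) in limb EGFP+, 45 (32.8 to 60.2) in limb EGFP−, 57 (43.2 to 73.8) in trunk EGFP+ and 27 (17.8 to 39.3) in trunk EGFP− cells. In the trunk these intervals did not overlap, and in the limb they did. A region 28.9 kb upstream (chr15:102307435-102309024) had -log10 p of 22.0, 22.4, 16.7 and 17.2 in the same order. A further region, which overlaps the last part of the gene (chr15:102263529-102265100), had -log10 p of 18.1 and 19.9 in limb and trunk EGFP+ cells, 5.83 in trunk EGFP− cells and no peak in limb EGFP− cells. The single EGFP−-only region, 7.21 kb upstream (chr15:102286480-102286680), had 21 reads in the limb. The leading EGFP+-only region of the window lay 115 kb downstream in an intron of Rarg, a retinoic acid receptor gene (chr15:102164289-102164549), where 99 and 92 reads stood over a local background of 47.9 and 36.4 reads.

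**Figure D5:**
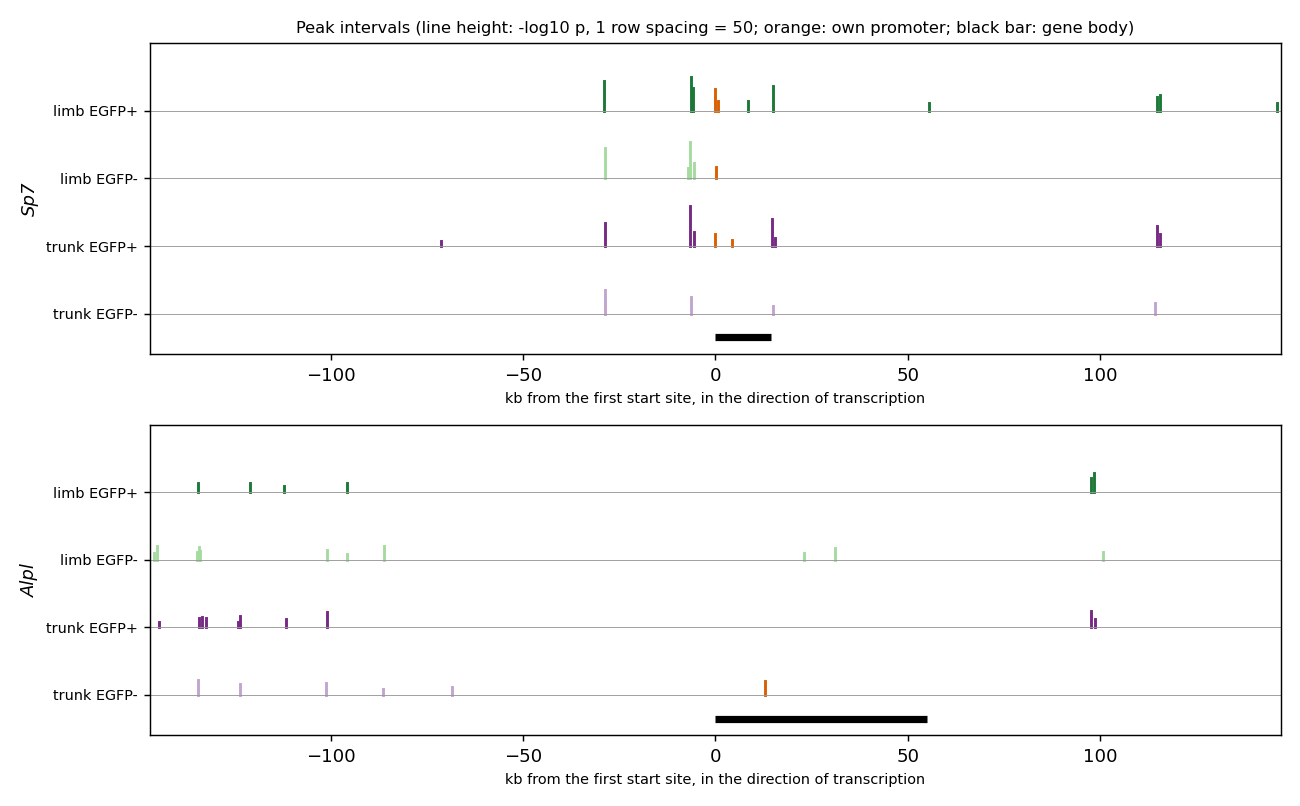
Peak intervals of the 4 lists (rows) in the windows of Sp7 and Alpl by distance from the first start site (x axis, kb, positive in the direction of transcription), with line height in proportion to -log10 p, promoter intervals in orange and the gene body as a black bar. The regions 6.48 and 28.9 kb upstream of Sp7 recur in all 4 rows, and the body of Alpl holds no line in the EGFP+ rows.

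At Alpl, none of the EGFP+ peaks lay in the gene. Of its 21 regions, 19 lay in neighbouring genes, in Ece1 upstream and in Rap1gap downstream, and the 2 regions in the body of Alpl were EGFP−-only. The first of these (chr4:137492816-137493193) had -log10 p of 8.56 in limb and 6.73 in trunk EGFP− cells, and the second (chr4:137501045-137501249) had 5.28 in limb EGFP− cells alone. The trunk interval of the first reached a promoter window of another gene and was not counted among the distal intervals. The leading EGFP+-only region was in an intron of Rap1gap 98.6 kb downstream of the first start (chr4:137425133-137425800), with 29 reads (19.4 to 41.6) in limb and 17 (9.90 to 27.2) in trunk EGFP+ cells. In an intron of Ece1, 86.3 kb upstream (chr4:137610091-137610708), an EGFP−-only region had 26 reads (17.0 to 38.1) in the limb and 18 (10.7 to 28.5) in the trunk. A region present in all 4 lists, also in Ece1 and 101 kb upstream (chr4:137624815-137625601), had 33, 20, 30 and 24 reads in limb EGFP+, limb EGFP−, trunk EGFP+ and trunk EGFP− cells. The 3 regions around Dlx5 and Dlx6 were intergenic and weak, the strongest being 79.7 kb from the Dlx5 start (chr6:6802191-6802548), with 18 reads (10.7 to 28.5) in limb EGFP+ cells.

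Other osteoblast genes were compared as lists. Of all protein-coding genes, 54.4% had a promoter peak in limb EGFP+, 51.6% in limb EGFP−, 52.6% in trunk EGFP+ and 52.7% in trunk EGFP− cells. A peak in all 4 lists was found for 47.4% of all genes. Of 13 osteoblast transcription factors and cofactors, 12 had a promoter peak in limb EGFP+ cells and 10 in each of the other lists, and 10 had one in all 4. The exceptions were Msx2 and Dlx3, homeobox genes with a peak in limb EGFP+ cells alone, and Tcf7, with none. Gli2, a transducer of hedgehog signals, had 89, 87, 70 and 60 reads in limb EGFP+, limb EGFP−, trunk EGFP+ and trunk EGFP− cells. Its -log10 p in the same order was 22.0, 33.6, 18.9 and 19.2. Of 16 matrix and mineral genes, 8 had a promoter peak in the EGFP+ list and 6 in the EGFP− list of each tissue. Col1a1, which encodes a chain of the collagen of bone, had 60 and 42 reads in limb and trunk EGFP+ cells and 78 and 50 in EGFP− cells. By -log10 p the order was the other way, with 22.0 and 11.3 in limb and trunk EGFP+ cells and 16.5 and 7.93 in EGFP− cells. Enpp1 and Ank, which supply the pyrophosphate that restrains mineral deposition, had peaks in EGFP+ cells alone, the pattern of Runx2. Spp1, Ibsp, Bglap, Bglap2, Phex, Dmp1, Ifitm5 and Bmp3, most of them late osteoblast or osteocyte genes, had no promoter peak in any list. These were 8 of the 16 genes, where 41.3% of all protein-coding genes had no promoter peak in any list.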

How the data were processed

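H3K27ac ChIP-seq peak lists were analysed for 4 populations with 1 library each. The authors sampled equal read numbers with Seqtk, trimmed with CutAdapt 1.18, mapped to GRCm39 with Bowtie2 2.3.5.1, filtered on mapping quality with Samtools and called peaks with MACS2 2.2.7.1, extending reads to 200 bp. No control library or q threshold is given in the sources used here, nor which library had which of the stated read lengths. The paper names the Bioruptor Pico sonicator for ChIP-seq, and the sample records also name another without assigning it to a library. The deposited lists hold a score (10 times the −log10 q, truncated), a fold, which is the ratio of summit pileup to local background, and −log10 p and −log10 q, all as the authors' MACS2 wrote them. In the trunk EGFP− list the peak names carry another replicate number than the label, and the label was used.

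Summits with equal start and end were joined, and reads at the summit were solved from fold and −log10 p (largest relative error 8.82e-06). Intervals that overlapped by at least 1 bp were joined across lists. A region's pattern counts any interval that overlaps it. Positions are 1-based, and genes come from GENCODE vM39. Ranks use −log10 p within a list. Intervals are exact (Poisson or Clopper-Pearson, 95%) and cover counting error only. With 1 library per group no test was made. The members and lists were chosen with earlier results of these data known. The text names all 8 members, the leading distal region of each pattern per window, where there is one, and up to 4 listed genes with the promoter pattern of Runx2, Sp7 or Alpl. Further regions and genes were picked after their values were seen. Motif windows were read from the GRCm39 genome, with 250 bases before a start in place of a promoter table of another build. 1 promoter sequence is not reported here, and the windows whose letters are not printed were only searched for motifs. The steps were tested on simulated data. Alternatives were the peak threshold, list length, window sizes, the promoter filter, joining, overlap and ranking, plus leaving out Runx3, which was chosen after seeing the data. Tools were scipy 1.17.1, pandas 2.3.3, pysam 0.24.0, numpy 2.4.6 and matplotlib 3.10.9 under Python 3.11.15.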

Additional observations from a re-analysis of the deposited data

Results flagged for a closer look

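The distal intervals of Alpl differed between the fractions in opposite directions in the 2 tissues. The difference between EGFP+ and EGFP− cells was -5 intervals in the limb and 5 in the trunk. The trunk difference was 0 with a −log10 q of at least 5 and with a window of 50 kb, the values were -1 and 1 with a fold of at least 4, and with a window of 500 kb both were above 0 (2 and 3). With 1 library per population this difference was not tested.

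The rank of the strongest Runx1 P2 peak, as top percent of its own list, was lower by 20.1 points in EGFP+ than in EGFP− cells of the limb (a difference of -20.1) and higher by 4.77 points in the trunk. A second cluster of P2 start sites, which shares most of these intervals, gave -34.4 and 4.77 points. The lists differ in length, the limb EGFP− value comes from 1 of 3 separate intervals, and a lower top percent is a stronger rank. The limb summits had 71 reads in the EGFP+ and 29 in the EGFP− list, over local backgrounds of 10.8 and 4.5 reads. The counting intervals of the trunk summits overlapped, with 65 reads (50.2 to 82.8) in the EGFP+ list and 52 (38.8 to 68.2) in the EGFP− list. The difference between the tissues was not tested.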

How the results depend on the processing

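The excess of EGFP+-only over EGFP−-only regions held under every alternative that was run, and the counts moved with the settings. Much of this excess is shared by all distal regions, of which 46.2% were EGFP+-only and 31% EGFP−-only. These shares were 49.6 and 23.3% with a −log10 q of at least 5, and 49.9 and 28.2% with a fold of at least 4. They were 41.9 and 31.1% with intervals within 500 bp joined. With lists of equal length the order was reversed, at 36.6 and 38.9%. A −log10 q of at least 5 left 34 EGFP+-only, 10 EGFP−-only and 12 shared regions (60.7% EGFP+-only against 49.6% of all distal regions), 37, 17, 32 and 13 distal intervals in limb EGFP+, limb EGFP−, trunk EGFP+ and trunk EGFP− cells, and 3 genes with a promoter peak in trunk EGFP+ cells. A fold of at least 4 left 27, 12 and 11 regions (54% EGFP+-only against 49.9% of all distal regions), 31, 19, 19 and 9 intervals, and 4 and 2 genes with a promoter peak in limb and trunk EGFP+ cells. Runx2 lost its trunk promoter peaks at that −log10 q and all its promoter peaks at that fold. Lists of equal length gave 45 EGFP+-only regions, 50% of all, where 36.6% of all distal regions were EGFP+-only under the same setting. Windows of 50 kb gave 36, 11 and 14 regions and 39, 21, 37 and 17 intervals, and windows of 500 kb gave 167, 67 and 61 regions and 175, 93, 157 and 82 intervals. With only the members' own promoters left out there were 52 shared regions, a share of 49.4% EGFP+-only, and 109, 79, 103 and 69 intervals. Joining intervals within 500 bp gave 42 EGFP+-only regions (51.2%), where 41.9% of all distal regions were EGFP+-only. Leaving out Runx3, chosen after seeing the data, gave 56.3%, against 46.2% of all distal regions. The median rank of the member promoters was in the top 45.5, 44.6, 51.9 and 47.0% of the lists. Ranked by fold it was 30.9% in trunk EGFP− cells, and among promoter intervals alone it was 75.0, 70.3, 79.6 and 71.8%. The difference between fractions reversed for Runx1 in the limb with lists of equal length (-1), for Cbfb in the trunk with a fold of at least 4 (1) and a window of 500 kb (5), and for Alpl in the limb with a window of 500 kb (2). No paired analysis was possible because each population has 1 library. The cause of these changes was not tested.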

Other observations

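Of 10 genes linked to hypertrophic chondrocytes, 8 had a promoter peak in EGFP+ and 5 in EGFP− cells of the limb, and 7 and 6 in those of the trunk. Over all protein-coding genes the shares were 54.4 and 51.6% in the limb and 52.6 and 52.7% in the trunk. Peaks in all 4 lists were found for 5 of the 10, against 47.4% of all genes, and 2 had none, against 41.3%. Col10a1, the collagen of hypertrophic cartilage, and Mmp13, a collagenase of its resorption, had none in any list. Panx3 had 30 and 12 reads in limb and trunk EGFP+ cells and no EGFP− peak, the promoter pattern of Runx2. Ihh, the signal of prehypertrophic chondrocytes, had a promoter peak in limb EGFP+ cells alone with 11 reads, the pattern of Runx3 and Dlx6, and 13, 2, 8 and 1 distal intervals in limb EGFP+, limb EGFP−, trunk EGFP+ and trunk EGFP− cells. Pth1r, the receptor that keeps chondrocytes from hypertrophy, had peaks in all 4 lists, with 61 and 35 reads in limb EGFP+ and EGFP− cells and 50 and 27 reads in the trunk.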
